A study of Mus musculus with 4 samples.

Results

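Kit, the receptor tyrosine kinase for stem cell factor, was examined together with Kitl, the gene of that ligand, and 8 genes that mark mast cells (Cpa3, Mcpt4, Cma1, Tpsb2, Fcer1a, Ms4a2, Hdc and Tph1). They were chosen by name, as every array feature whose platform annotation gives exactly 1 gene symbol and that symbol is one of the 10. This took 32 features of 45220, which became 13 probes of 43154 once repeated spots of a probe were combined by their median. The 13 probes stood for 10 genes of 19087. The arrays carried mouse probes and were hybridised with RNA from xenografts of MDA-MB-231, an established human triple-negative breast carcinoma cell line, grown in immunodeficient mice. How far human transcripts also bound the mouse probes was not tested. The sunitinib group held 2 samples from mice given 40 mg/kg/day of the drug, and the vehicle group held 2 samples from mice given vehicle. All 4 samples came from such xenografts and are listed with 0.5 µg of total RNA and a RIN of 9. The labels give neither the mouse strain, age or sex nor what immune cells the hosts kept, and the series title speaks of withdrawal of the drug without a time for any sample. Nor do the labels tell if the 2 replicates of a group came from different mice, and the p-values below cover the spread of these samples alone, part of which may be technical.

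Kit is bound and activated by stem cell factor, which fibroblasts, endothelial cells and other stromal cells make in membrane-bound and soluble forms. Mast cells are tissue immune cells that keep Kit on their surface throughout life and depend on it for survival, whereas most other blood lineages lose it as they mature. They carry the high-affinity receptor for IgE and store histamine, serotonin, heparin and proteases in granules, and in tumours they are found in the stroma and around vessels. Sunitinib inhibits Kit as well as the VEGF and PDGF receptors, which is why the gene, its ligand and its cell type are of interest here.

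Before the members are described, the arrays themselves need a few words. Values are log2 signals as deposited, with a median of 8.89 or 8.90 and a 5th percentile of 8.48 or 8.49 on every array. Most features lie close to this floor, which compresses the log2 differences of dim genes, and a fold understates the change. Xist, the RNA of the inactive X chromosome, read 8.97 and 8.96 in the sunitinib arrays against 12.19 and 12.26 in the vehicle arrays, and the Y-linked Eif2s3y read 10.21 and 10.02 against 8.46 and 8.58. Treatment therefore cannot be told apart from whatever set Xist and Eif2s3y between the arrays. Replicate 1 of both groups shared a slide, as did replicate 2, and on each slide the sunitinib array was number 2 and the vehicle array number 1.

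None of the 13 member probes passed in the comparison of sunitinib with vehicle (limma, Benjamini-Hochberg over all 43154 probes, threshold 0.05), where 0.00232% of all probes did, a single Xist probe. The lowest adjusted p of a member was 0.352. At an unadjusted p under 0.05 there was 1 member probe, for Tph1 and lower with sunitinib, while 13.4% of all probes reached that level. The median difference over the 13 probes was -0.08, against 0.01 over all probes. Of the members, 8 were lower and 5 higher on average, with differences between -0.33 and 0.10, and 47.8% of all probes were lower.

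The dot plot of values by array shows how low these signals were. Mean values of the 13 probes over the 4 arrays ran from 8.61 to 9.56, where the median of all probe means was 8.86 and the 5th percentile 8.54. Of the 12 probes of the 9 mast cell genes, 9 lay above that median, and those of Fcer1a, Ms4a2 and the dimmer Tph1 probe did not. The label of a mast cell group thus rests on signals at most 0.70 log2 above the middle of the array. In whole-tumour RNA, a change in the number of mast cells and a change in RNA per mast cell could not be told apart.

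**Figure D1:**
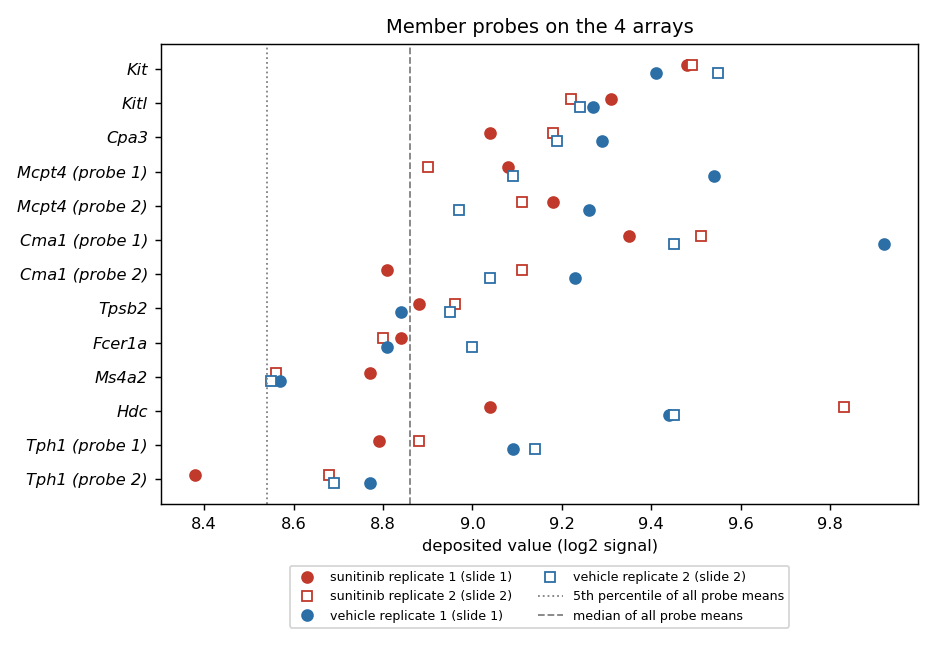
Deposited log2 signal (horizontal axis) of each of the 13 member probes (rows) on the 4 arrays, with sunitinib in red above vehicle in blue in each row, circles for slide 1 and open squares for slide 2. The dotted and dashed lines mark the 5th percentile (8.54) and the median (8.86) of all probe means, and vehicle replicate 1 is the rightmost point of both Cma1 probes, both Mcpt4 probes and Cpa3.

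The receptor and its ligand were the best measured members, because the array carries them on repeated spots. Kit read 9.48 and 9.49 in the sunitinib arrays against 9.41 and 9.55 in the vehicle arrays, each a median of 10 spots. The sunitinib values lay between the vehicle values. The difference was 0.01 (SE 0.09, n = 2 per group, limma adjusted p = 0.98), with a 95% interval of -0.23 to 0.24, which on this compressed scale is 0.855-fold to 1.18-fold. It was 0.07 on slide 1 and -0.06 on slide 2. The sign of so small a value turned when the position trend on the array was removed (-0.053) and without vehicle replicate 1 (-0.065).

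Kitl read 9.31 and 9.22 in the sunitinib arrays against 9.27 and 9.24 in the vehicle arrays, each a median of 11 spots, and the groups overlapped. The difference was 0.01 (SE 0.08, adjusted p = 0.968), with an interval of -0.21 to 0.23, or 0.867-fold to 1.17-fold. It was 0.04 on slide 1 and -0.02 on slide 2. Of its 11 spots, 1 was the lowest on all 4 arrays (8.64 to 8.91), whereas the other 10 read 8.81 to 9.60. The annotation gives all of them the same transcript, and whether that spot holds another probe sequence is not given in the sources used here. Without it, the difference was 0.04.

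The spots also show how far a single reading can stray, which matters for the other members, since their 11 probes have 1 spot each. Among the 10 Kit spots the SD within an array was 0.11 and 0.15 in the sunitinib arrays and 0.15 and 0.13 in the vehicle arrays. Taken spot by spot, the difference between sunitinib and vehicle ranged from -0.33 to 0.10 for Kit, with 6 spots higher and 4 lower. For Kitl it ranged from -0.36 to 0.20, with 6 higher and 5 lower. Over the 118 replicated probes of the array as bright as the members, the median SD among spots was 0.15 and 0.17 in the sunitinib arrays and 0.14 and 0.15 in the vehicle arrays. That spread alone gives a difference between 2 and 2 single-spot readings an SD of 0.15, if spots are taken as independent between arrays. The Kitl spot that was lowest on all 4 arrays shows that they need not be. As observed, the SD of the spot differences was 0.14 for Kit and 0.18 for Kitl.

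**Figure D2:**
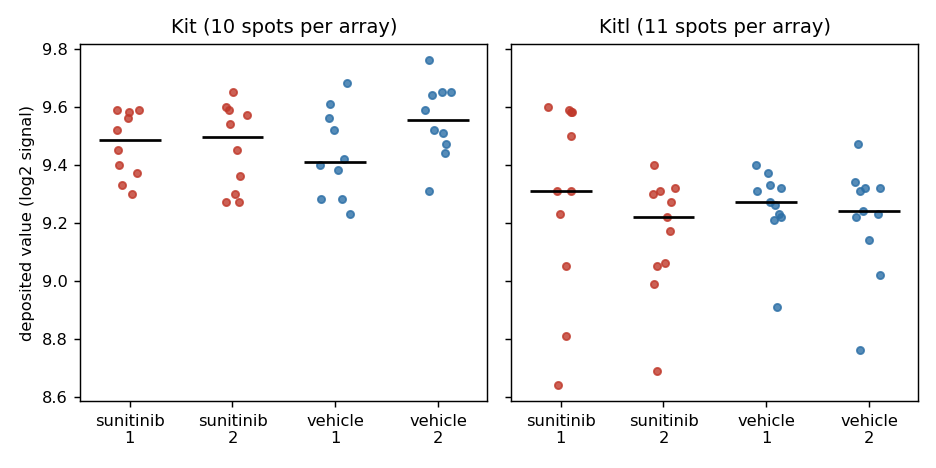
Deposited log2 signal (vertical axis) of every Kit spot (left, 10 per array) and every Kitl spot (right, 11 per array) on the 2 sunitinib arrays (red) and the 2 vehicle arrays (blue), with a black bar at each median. The Kit medians lie between 9.41 and 9.55 and the Kitl medians between 9.22 and 9.31, and the spots of all 4 arrays overlap.

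Among the granule proteases, 3 genes had their highest value in the same array. In 5 of the 6 protease probes, all those of Cpa3, Mcpt4 and Cma1, vehicle replicate 1 read highest, by 0.08 to 0.45 above the next array. Over all members 6 of 13 probes did so, and over all probes 21.6%. Counted by gene on the brightest probe, 3 of 10 members did so. Tpsb2 was the exception among the proteases, and this grouping by array was made after the values were seen. Mcpt4 and Cma1 are related chymases, and whether a probe of either also binds the other's transcript was not tested, so their probes may not be separate readings. Promoters of these 3 genes, from 250 bases before to 50 after the gene's start (RefSeq, GRCm38.p6), are shown because their probes shared this array pattern. GATA factors, of which mast cells use Gata2, bind a short motif, and capitals mark each match, on either strand, to GATAA or GATAG with A or T before it. Cpa3 lies at chr3:20242132-20242431 (minus strand), Mcpt4 at chr14:56062261-56062560 (minus strand) and Cma1 at chr14:55944626-55944925 (minus strand).
Cpa3: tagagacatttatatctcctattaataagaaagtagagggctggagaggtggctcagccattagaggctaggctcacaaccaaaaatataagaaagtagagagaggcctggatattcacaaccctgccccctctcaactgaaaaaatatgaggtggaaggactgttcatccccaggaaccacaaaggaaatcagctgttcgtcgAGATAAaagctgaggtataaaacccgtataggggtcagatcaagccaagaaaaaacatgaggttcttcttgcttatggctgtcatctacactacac
Mcpt4: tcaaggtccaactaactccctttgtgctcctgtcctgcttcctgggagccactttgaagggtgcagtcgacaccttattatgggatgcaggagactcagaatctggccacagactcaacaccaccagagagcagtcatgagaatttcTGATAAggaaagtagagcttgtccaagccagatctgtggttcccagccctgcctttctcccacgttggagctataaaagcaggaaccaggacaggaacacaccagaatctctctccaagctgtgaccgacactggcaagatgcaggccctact
Cma1: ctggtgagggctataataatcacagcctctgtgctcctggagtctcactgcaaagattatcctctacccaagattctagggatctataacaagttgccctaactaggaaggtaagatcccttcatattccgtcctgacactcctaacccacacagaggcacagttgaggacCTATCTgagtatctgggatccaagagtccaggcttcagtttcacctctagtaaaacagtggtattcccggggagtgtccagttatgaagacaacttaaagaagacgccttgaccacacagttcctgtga
Each of the 3 holds 1 match, whose leftmost base lies 46 (Cpa3), 103 (Mcpt4) and 79 (Cma1) bases before the start. Of the 9 members with a promoter in the table, 7 hold at least 1 match, in 7 of 11 promoters, against 29.8% of all 32851 promoters. The 2 Kit promoters and the Kitl promoter hold none. Fcer1a, Ms4a2, Hdc and 1 of the 2 Tph1 promoters also hold a match, so it was not particular to the 3 genes shown. The E-box letters CACATG or CACGTG on either strand, the kind that Mitf binds, occurred in 1 of the 11 (Fcer1a), against 20.4% of all promoters. Such a match is a description of the letters and not a binding site.

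Cma1, an alpha-chymase, read 9.35 and 9.51 in the sunitinib arrays against 9.92 and 9.45 in the vehicle arrays on its brighter probe. Only vehicle replicate 1 stood apart, and vehicle replicate 2 lay between the sunitinib arrays. The difference was -0.26 (SE 0.18, adjusted p = 0.532), made up of -0.57 on slide 1 and 0.06 on slide 2. The second probe gave the same order of slides, with 8.81 and 9.11 in the sunitinib arrays against 9.23 and 9.04 in the vehicle arrays, a difference of -0.18 (SE 0.14), and -0.42 and 0.07 on slides 1 and 2. Without vehicle replicate 1 the differences of the 2 probes were -0.02 and -0.08.

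Mcpt4, a chymase of connective tissue mast cells, had the largest difference of the members on its brighter probe, with 9.08 and 8.90 in the sunitinib arrays against 9.54 and 9.09 in the vehicle arrays. Both sunitinib arrays lay below both vehicle arrays, by 0.01 at the closest. The difference was -0.33 (SE 0.17, adjusted p = 0.445), with an interval of -0.77 to 0.12, and it was -0.10 without vehicle replicate 1. Its second probe, almost as bright, did not share it, with 9.18 and 9.11 in the sunitinib arrays against 9.26 and 8.97 in the vehicle arrays (difference 0.03, SE 0.12). On slides 1 and 2 the brighter probe gave -0.46 and -0.19 and the other -0.08 and 0.14.

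Cpa3, the mast cell carboxypeptidase stored with the chymases, read 9.04 and 9.18 in the sunitinib arrays against 9.29 and 9.19 in the vehicle arrays. The groups did not overlap, although the nearest arrays were 0.01 apart. The difference was -0.13 (SE 0.10, adjusted p = 0.55), with -0.25 on slide 1 and -0.01 on slide 2. Leaving out 1 array moved it to between -0.20 (without sunitinib replicate 2) and -0.06 (without sunitinib replicate 1), and it was -0.08 without vehicle replicate 1. Tpsb2, a tryptase of connective tissue mast cells, read 8.88 and 8.96 in the sunitinib arrays against 8.84 and 8.95 in the vehicle arrays, close to the array's median. Its difference was 0.03 (SE 0.09, adjusted p = 0.913), with an interval of -0.20 to 0.25.

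The mean level of the fibroblast markers was also highest in vehicle replicate 1. That of the endothelial markers was lowest there, at 9.90, as were those of the mucosal mast cell, melanocyte and progenitor markers. Over the 4 probes of Pdgfra, Dcn and Lum, all 4 were lower on average with sunitinib and none passed, and their mean level was 11.08 and 11.04 in the sunitinib arrays against 11.90 and 11.27 in the vehicle arrays. Over the 12 mast cell probes the mean level was 8.97 and 9.08 in the sunitinib arrays against 9.18 and 9.09 in the vehicle arrays. The part of stromal content in the protease readings was not tested.

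The alpha and beta chains of the IgE receptor, which are the subunits among the members, gave little signal. Fcer1a, the alpha chain that binds IgE, read 8.84 and 8.80 in the sunitinib arrays against 8.81 and 9.00 in the vehicle arrays. These values lie around the array's median and overlap between the groups (difference -0.08, SE 0.10, adjusted p = 0.708). Ms4a2, the beta chain that amplifies the receptor's signal, read 8.77 and 8.56 in the sunitinib arrays against 8.57 and 8.55 in the vehicle arrays. With its mean at percentile 10.99 of all probe means, this probe was near the floor, and its difference of 0.10 (SE 0.10, adjusted p = 0.65) came from sunitinib replicate 1.

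Enzymes of mast cell mediators among the members were Hdc and Tph1, neither of which passed. Hdc, which makes histamine from histidine, read 9.04 and 9.83 in the sunitinib arrays against 9.44 and 9.45 in the vehicle arrays. The sunitinib arrays lay on either side of a nearly equal vehicle pair, so that the SD was 0.56 with sunitinib and 0.01 with vehicle. The difference of -0.01 (SE 0.26, adjusted p = 0.988, interval -0.69 to 0.67) was -0.40 on slide 1 and 0.38 on slide 2. It was 0.385 without sunitinib replicate 1 and -0.405 without sunitinib replicate 2, neither of which passed, and 0.066 with the position trend removed.

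Tph1 is the tryptophan hydroxylase of serotonin synthesis outside the brain, and its probes gave different slide values. Its brighter probe read 8.79 and 8.88 in the sunitinib arrays against 9.09 and 9.14 in the vehicle arrays. Both sunitinib arrays were below both vehicle arrays, by 0.21 at the closest, with differences of -0.30 on slide 1 and -0.26 on slide 2. The difference of -0.28 (SE 0.08, interval -0.50 to -0.06) had an unadjusted limma p of 0.0216 and did not pass (adjusted p = 0.352). It ranged from -0.325 to -0.196 over the alternatives. The dimmer probe, at or below the array's lower quartile of 8.70 or 8.71 in 3 of 4 arrays, read 8.38 and 8.68 in the sunitinib arrays against 8.77 and 8.69 in the vehicle arrays. There the difference was -0.20 (SE 0.13, adjusted p = 0.499), with -0.39 on slide 1 and -0.01 on slide 2.

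The median difference of the members was not the same on the 2 slides, whereas the number of lower probes was similar. On slide 1, 8 of the 13 member probes were lower with sunitinib, with a median of -0.25, where 47.9% of all probes were lower and their median was 0. On slide 2, 7 of 13 were lower with a median of -0.01, against 45.8% and 0.02 for all probes. Both sunitinib arrays were below both vehicle arrays in 4 member probes (Cpa3, the brighter Mcpt4 probe and both Tph1 probes), against 21.6% of all probes, and above them in 0, against 25.5%. Whether the difference between slides exceeds chance was not tested, because each slide holds 1 array of each group.

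**Figure D3:**
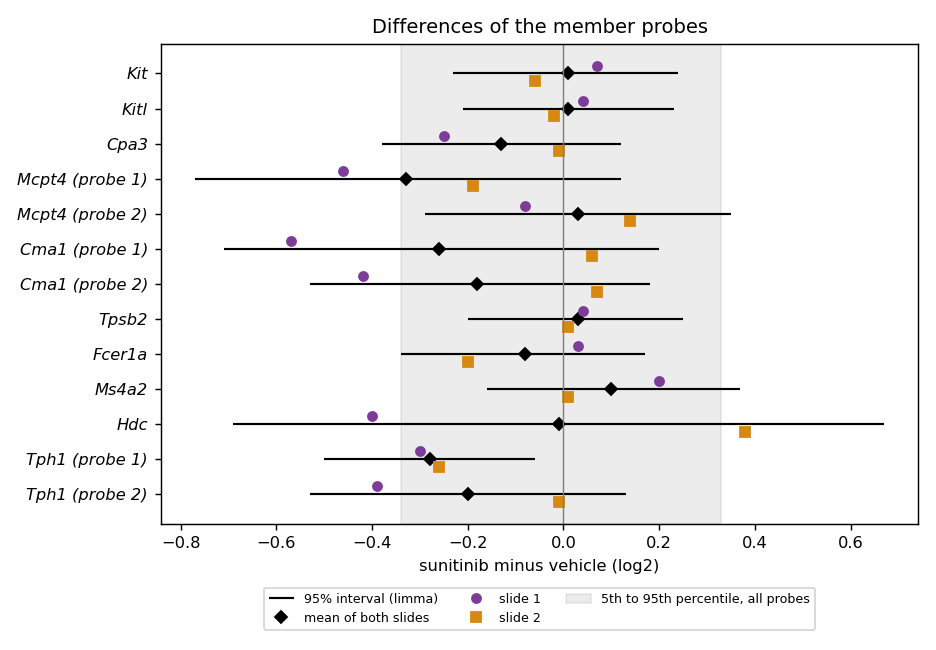
Sunitinib minus vehicle (horizontal axis, log2) for each member probe (rows), with the mean of both slides as a diamond, its 95% limma interval as a line, slide 1 as a circle and slide 2 as a square. The grey band holds the middle of all probes (5th to 95th percentile, -0.34 to 0.33), in which all 13 means lie, and the interval of the brighter Tph1 probe (-0.50 to -0.06) is the single one that does not cross 0.

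Genes around the members were read from 4 further lists with 107 probes of 65 genes (of 70 listed). Mcpt6 on these lists is another name of Tpsb2 and was counted with the members, and the remaining genes without a named probe were not analysed here. None of the 107 probes passed in either direction (limma, adjusted as above). At an unadjusted p under 0.05, 9 were higher and 2 lower with sunitinib, where 7.72% and 5.70% of all probes were. The median difference was 0.01, the same as over all probes.

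Kit signalling genes held 42 probes of 23 genes, with a median of 0.03. Grb2, the adaptor that links activated receptors to Ras, read 14.18 on both sunitinib arrays against 13.71 and 13.83 in the vehicle arrays (difference 0.41, SE 0.09, adjusted p = 0.352), but differed by 0.06 on its second probe. Socs1, an inhibitor of cytokine signalling that also binds Kit, had the largest positive difference, with 11.05 and 11.08 in the sunitinib arrays against 10.19 and 10.58 in the vehicle arrays (0.68, SE 0.15, adjusted p = 0.352). The groups did not overlap for either of these. The largest negative difference was on the third brightest of 4 probes of Pik3r1, the regulatory subunit of PI3 kinase (-0.47, SE 0.16), whose brightest probe differed by 0.07. The phospholipase Plcg2 differed by 0.24 (SE 0.09), the phosphatase Ptpn11 by -0.17 (SE 0.09) and the lipid phosphatase Inpp5d by 0.12 (SE 0.14). These genes are shared by many blood and stromal cells.

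Genes of the IgE receptor and its first signalling steps held 7 probes of 5 genes, with a median of 0.22, against 0.01 over all probes, and 5 probes higher, against 21911 of all 43154. The adaptor Lat read 9.04 and 9.11 in the sunitinib arrays against 8.74 and 8.77 in the vehicle arrays (0.32, SE 0.08, adjusted p = 0.352), and the groups did not overlap. The related adaptor Lat2 differed by 0.24 (SE 0.09) on its brighter probe, Lcp2 by 0.22 (SE 0.13) and the kinase Syk by -0.24 (SE 0.20), with -0.64 on slide 1 and 0.15 on slide 2. Fcer1g, the receptor's gamma chain, which macrophages and natural killer cells also use, read 14.25 and 14.39 in the sunitinib arrays against 14.10 and 14.29 in the vehicle arrays (0.13, SE 0.11) on its brighter probe, while its second probe differed by -0.10 (SE 0.11).

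Transcription factors of the lineage held 22 probes of 10 genes, with a median of -0.03. Gata2, needed for mast cell development and also made by endothelium and blood progenitors, read 10.43 and 10.52 in the sunitinib arrays against 10.11 and 9.82 in the vehicle arrays on its brighter probe. The groups did not overlap there (difference 0.51, SE 0.12, adjusted p = 0.352), but the dimmer probe went the other way, with 9.11 on both sunitinib arrays against 9.25 and 9.33 in the vehicle arrays (-0.18, SE 0.08). Bhlhe40 differed by -0.31 (SE 0.16), Zeb2 by 0.18 (SE 0.14) and Cebpa by -0.09 (SE 0.12) on their brightest probes, while that of Meis2 had the same mean in both groups. Other probes disagreed with these for Cebpa, whose second probe differed by 0.22 (SE 0.09), and for Zeb2, whose other 7 probes ranged from -0.28 to 0.14, with 5 of them lower.

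Other products and surface proteins of mast cells held 36 probes of 27 genes, with a median of 0.01. Alox5ap, which serves leukotriene synthesis in several myeloid cells, had the largest positive difference among probes above the median, at 0.23 (SE 0.08, adjusted p = 0.357). Hs3st1, a heparan sulfate sulfotransferase, had the largest negative one, at -0.29 (SE 0.12). The granule proteoglycan Srgn differed by 0.10 (SE 0.23), the granule membrane protein Cd63 by -0.19 (SE 0.13), the lysosomal protein Lamp1 by -0.11 (SE 0.15) and the IgG receptor Fcgr3 by -0.12 (SE 0.14). Mrgprb2, a receptor of connective tissue mast cells, read 8.87 and 8.83 in the sunitinib arrays against 8.83 and 8.69 in the vehicle arrays.

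**Figure D4:**
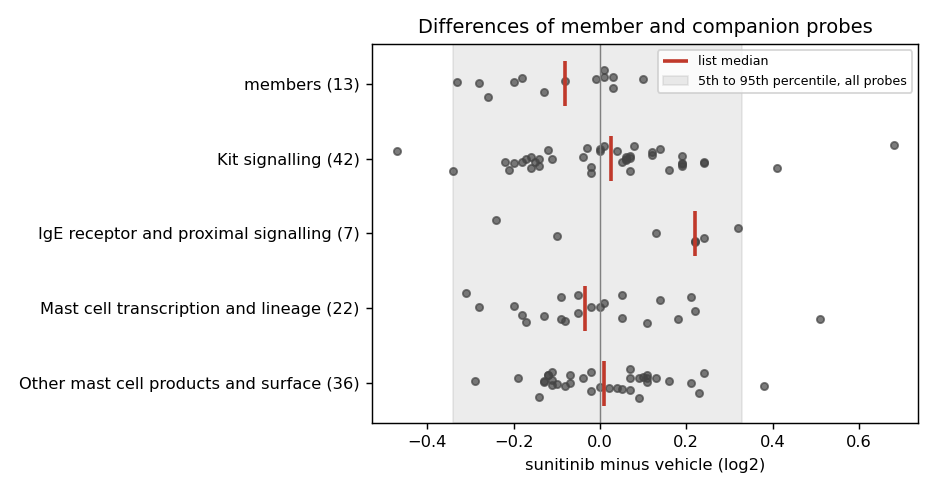
Sunitinib minus vehicle (horizontal axis, log2) for every probe of the members and of the 4 further lists (rows, with the number of probes in brackets), with a red bar at each list's median. The grey band holds the 5th to 95th percentile of all probes, and Socs1 at 0.68, Gata2 at 0.51 and Pik3r1 at -0.47 lie farthest outside it.

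Markers of mucosal mast cells, of basophils (which share the IgE receptor but mostly lack Kit) and of other cells that can carry Kit lay mostly under the median of all probes. The mucosal mast cell proteases Mcpt1 and Mcpt2 were both under it, with a mean level of 8.96 and 8.75 in the sunitinib arrays against 8.41 and 8.68 in the vehicle arrays. Mcpt2 differed by 0.24 (SE 0.09, limma adjusted p = 0.366), with 0.35 on slide 1 and 0.14 on slide 2. Mcpt1 differed by 0.38 (SE 0.18, limma adjusted p = 0.423), with 0.74 on slide 1 and 0.01 on slide 2. Its reading in vehicle replicate 1 was 8.27. All 6 basophil probes (among them Fcer1a and Ms4a2, which are also members) and all 5 melanocyte probes were under that median, the melanocyte probes with a mean of 8.77 and 8.75 in the sunitinib arrays against 8.64 and 8.70 in the vehicle arrays. The basophil probes averaged 8.69 and 8.61 in the sunitinib arrays and 8.70 and 8.74 in the vehicle arrays. Of 2 genes of the interstitial cells of Cajal, both above the median, Etv1 differed by -0.30 (SE 0.10, adjusted p = 0.352) and Ano1 by -0.09 (SE 0.10), and their mean level was 9.21 and 9.07 in the sunitinib arrays against 9.30 and 9.39 in the vehicle arrays. Of 4 progenitor probes, 1 (Cd34, which endothelium also makes) was above the median, with 14.28 and 13.35 in the sunitinib arrays against 12.43 and 13.20 in the vehicle arrays (1.00, SE 0.39, adjusted p = 0.375).

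Of the cells that make Kit ligand, endothelium (6 probes of Pecam1, Cdh5 and Kdr) had a median difference of -0.04 over values from -0.15 to 0.73, and a mean level of 10.20 and 9.98 in the sunitinib arrays against 9.90 and 10.09 in the vehicle arrays. The highest of these was the brighter Cdh5 probe (0.73, SE 0.40, adjusted p = 0.454), with 1.61 on slide 1 and -0.14 on slide 2, while the other Cdh5 probe differed by -0.03. The keratin genes Krt5 and Krt14 averaged 8.86 and 8.94 in the sunitinib arrays and 8.96 in both vehicle arrays. None of the probes on these marker lists passed, and Mlana and Ly6a were not analysed here. By the rule for genes with a pattern like that of Kit, none is named, because Kit ranged over 0.14 log2 among the 4 arrays, under the 0.5 that the rule asks for.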

How the data were processed

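RNA labelled with Cy3 was read on Agilent mouse arrays of 1 colour, as the labels state. The deposited values are on a log2 scale, read from their range (6.75 to 16.34), and the submitters' processing notes name limma with no version. How the authors corrected background and normalized is not stated in those notes. Values were used as deposited, without detection flags.

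Features were named through the platform annotation, and symbols were brought up to date through the gene numbers of RefSeq (found for 99.6%). Of 45220 features, 33653 had 1 gene, 56 several and 11511 were not listed. Where 8 or more spots had the same gene and accession (217 probes), their median was taken. Treatment was tested as the single factor with lmFit and eBayes in limma 3.58.1 (R 4.3.3), with Benjamini-Hochberg adjustment over 43154 probes and a threshold of 0.05. The number of arrays limits the precision.

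The array titles tie the replicate number to a slide, which pairs the samples (correlation of deviations from the group means within a slide -0.225). Members, lists and alternatives were chosen with earlier results of these data known. All member probes were named. From each further list came the 4 genes with the brightest probes and those of largest positive and negative difference among probes above the median. Mcpt1, Mcpt2, Mrgprb2 and single marker genes were named outside this rule, after their values were seen.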

Additional observations from a re-analysis of the deposited data

How the results depend on the processing

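No member probe and none of the 107 probes of the further lists passed under any of 14 alternatives, where the lowest adjusted p of a member in limma was 0.285, although the number of members with an unadjusted p under 0.05 ran from 0 to 3, and was 4 of the 32 spots taken singly. Leaving out dim probes removed Ms4a2 and the dimmer Tph1 probe, and 1 probe a gene removed the second probes, so these have no value there. The slide as a replicate block lowered the number of probes with an unadjusted limma p under 0.05 from 5792 to 3667. In both fits 1 member probe was among them. With that block 0 probes passed over the array, against 1 without it. The count over the array was also 0 with a floor at the 5th percentile and 0 in every fit that left out 1 array, 2 with arrays centred on the median and 6 with an intensity trend and robust prior. After the data were seen, removal of a running median over 21 by 21 features was added, with feature numbers taken to run along rows of 85, and 4 probes passed with it, with or without the block. It turned the sign of Kit (-0.053), the dimmer Mcpt4 probe (-0.109), Tpsb2 (-0.059) and Hdc (0.066), with the same values under the block. Leaving out 1 array at a time gave ranges that crossed 0 for Kit (-0.065 to 0.08), Kitl (-0.035 to 0.055), the dimmer Mcpt4 probe (-0.115 to 0.175), Tpsb2 (-0.03 to 0.08), Fcer1a (-0.18 to 0.01) and Hdc (-0.405 to 0.385). The cause of these changes was not tested. Differences kept their sign under every alternative for Cpa3, the brighter Mcpt4 probe and both probes of Cma1 and Tph1. Signals near the floor, with 1 spot for 11 of the 13 probes, limit what could be seen.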
